A study of Mus musculus with 6 samples.

Results

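The genes Defb40, Wdr95, Unc93a, Mapk12, Dnase2b, Gstm3 and Olfr1033 were followed here across sorted basophil-lineage cells of mouse bone marrow. They are 7 of the 24532 genes in the deposited tables and were picked by name for large rises to the MAR1INT cells, so their levels across the populations are given as a description, with no test. The values that chose them were the TPM values of all 6 libraries, a measure of transcript abundance scaled to length and to the same total in each library. Each gene was found by its Entrez identifier, which had 1 symbol in the reference gene table.

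The libraries came from C57BL/6J mice, with 2 libraries from each of 3 populations that the design text calls biological duplicates. All 3 populations were lineage-negative and c-Kit-negative. BaP, labelled as a basophil precursor, was CD34-positive and bound MAR1, an antibody against FcεRI alpha, the IgE-binding subunit of the receptor that arms basophils. MAR1HI and MAR1INT were CD34-negative and CD200R3-positive, with high or intermediate MAR1 binding. The labels give neither the age of the mice nor whether animals were pooled, and no treatment is named.

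Basophils are short-lived blood granulocytes that carry the IgE receptor and release histamine, proteases and type 2 cytokines. They arise in the marrow from CD34-positive precursors. The 7 genes belong to unrelated families. Defb40 encodes a beta-defensin, one of a group of small secreted peptides that are held together by disulfide bonds between cysteines and can kill microbes. Wdr95 encodes a protein with WD repeats, which form a propeller-shaped platform for other proteins. Unc93a is a membrane protein related to Unc93b1, which carries nucleic acid-sensing Toll-like receptors to endosomes. Mapk12 is p38 gamma, a stress-activated protein kinase best known from skeletal muscle. Dnase2b is an acid deoxyribonuclease known in mice for clearing DNA from lens fibre cells. Gstm3 is a mu-class glutathione transferase, an enzyme that joins glutathione to reactive compounds. Olfr1033 belongs to the olfactory receptors, the odorant receptors of nasal sensory neurons.

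The tables implied 4.75 to 5.28 gigabases of aligned sequence per library, and 9604 to 11544 genes reached a TPM of 1. The libraries differed in how many genes were above 0, with 17005 in BaP replicate 2, 14601 in MAR1HI replicate 2 and 10862 to 13329 in the others. All 8 basophil markers, among them the protease Mcpt8 and the receptor subunit Fcer1a, were above 0 in each library, with summed levels of 10700 to 19200 TPM. Summed levels of the 8 eosinophil markers were 2160 and 1150 TPM in BaP, then 81.2 and 119 in MAR1HI, then 81.5 and 228 in MAR1INT. Of these, Epx, Prg3, Ear6 and Il5ra were listed at 0 in both MAR1INT libraries, whereas Siglecf rose from 21.4 ± 0.68 TPM in BaP to 94.6 ± 21.4 in MAR1INT (log2 change 2.08, adjusted p = 0.00118 in limma). The summed levels of the neutrophil, monocyte, dendritic, mast cell, and T and NK cell markers were lower in both MAR1INT libraries than in either BaP library. The same held for the basophil sum, at 13800 and 18200 TPM in BaP and 12900 and 10700 in MAR1INT. Of the basophil markers, Mcpt8 (log2 change -1.21, adjusted p = 0.00324 in limma), Prss34 (-0.84, 0.0343) and Fcer1a (-0.81, 0.0141) were lower in MAR1INT than in BaP. In contrast, Cd200r3 (1.59, 0.000269), Il4 (1.72, 0.00166), Gata2 (1.05, 0.00399) and Hdc (1.29, 0.00119) were higher, and Ms4a2 was not called. Cd200r3 and Fcer1a encode proteins by which the populations were defined, and the part of the sort in their differences was not tested. The T and NK sum was nearly all Nkg7 (371 of 373 TPM in BaP replicate 1) and the mast cell sum nearly all Cpa3 (3280 of 3330 TPM there). Kit RNA, also in the mast cell list, stood at 44.9 and 38.6 TPM in BaP, although all populations were labelled c-Kit-negative. It stood at 2.94 and 4.36 TPM in MAR1HI and 0.0446 and 0.449 in MAR1INT (MAR1INT minus BaP -5.11, adjusted p = 8.48e-05 in limma). Single markers differed from their sums, since Adgre1 stood at 33.2 ± 11.9 TPM in BaP and 36.5 ± 15.6 in MAR1INT, and the neutrophil genes S100a8, S100a9, Ltf, Ngp and Retnlg were not called in any comparison. The sums of the B cell markers overlapped between BaP and MAR1INT. The 4 megakaryocyte markers summed to 256 and 266 TPM in BaP and to 442 and 343 in MAR1INT, most of it Itga2b, and the platelet factor Pf4 was listed at 0 in both MAR1INT libraries. The 6 erythroid markers summed to 72.5 and 2290 TPM in BaP, then 48.3 and 591 in MAR1HI, then 2760 and 1260 in MAR1INT. Bulk values cannot tell fewer cells of a type from less RNA per cell, and the part of these marker differences in the results was not tested.

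Defb40 was the most abundant of the 7 in MAR1INT. It lies on mm10 chromosome 8, 18974940 to 18978116, on the minus strand, in a cluster of beta-defensin genes, and its annotated transcript has 2 exons. The coding sequence is shown because it carries the identity of the transcript. It is read from the GENCODE transcript (build GRCm38, chr8:18974967-18978116, minus strand, 2 exons joined), with the in-frame codons for cysteine in capitals.
Defb40 coding sequence: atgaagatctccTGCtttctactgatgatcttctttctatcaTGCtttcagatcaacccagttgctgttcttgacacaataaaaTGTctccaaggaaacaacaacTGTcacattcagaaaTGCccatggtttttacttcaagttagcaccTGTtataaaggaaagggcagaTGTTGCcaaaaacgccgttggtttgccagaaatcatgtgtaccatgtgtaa
It holds 73 codons before the stop, 8 of them for cysteine. None of its 340 distinct 50-base words occurred in a transcript of another annotated gene.

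Defb40 was listed at 0 TPM in both BaP libraries, at 20.3 and 29.4 in MAR1HI, and at 135 and 81.0 in MAR1INT. The 3 groups did not overlap, and the MAR1INT duplicates differed 1.67-fold. The mean in MAR1INT was 108 ± 38.5 TPM (SD, n = 2), above 89.0% of the 11337 genes tested, and 4.36 times that in MAR1HI. On the log2(TPM + 1) scale, on which all differences are given, it stood 4.67 higher in MAR1HI than in BaP and 2.06 higher in MAR1INT than in MAR1HI. No fold against BaP is given, since the difference rests on the constant added. The mean depth over the transcript was 59.1 and 71.6 reads per base in MAR1HI and 320 and 203 in MAR1INT.

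The rest of the beta-defensin family did not share these levels. Of 41 other beta-defensin genes, 28 were listed at 0 in all 6 libraries and 0 reached the filter of 1 TPM in at least 2 libraries. In MAR1INT 0 of the 41 were above 0 in either library. In BaP replicate 2, 13 were above 0, with 16.9 TPM in all, and in MAR1HI replicate 2 there were 2, with 0.545 TPM. The nearest defensin, Defb37, lies 8117 bases from Defb40 and was listed at 0 throughout, as was Defb39. Defb38 was listed at 4.15 TPM in BaP replicate 2 and at 0 elsewhere.

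Wdr95 had the largest difference between MAR1INT and MAR1HI among the 7. It lies on chromosome 5, 149528679 to 149611894, plus strand, and the matching transcript has 23 exons with 2482 exonic bases. Its levels were 0.588 and 0 TPM in BaP, then 3.57 and 1.75 in MAR1HI, then 55.8 and 95.7 in MAR1INT. Every MAR1INT value lay far above the 4 others, while MAR1HI reached 3.51% of the MAR1INT mean. That mean was 75.7 ± 28.2 TPM (SD, n = 2), 28.5 times the 2.66 ± 1.29 of MAR1HI (43.3 times without MAR1HI replicate 1), a log2 difference of 4.39. The depth behind the BaP and MAR1HI values was low, from 0 to 10.4 reads per base, against 132 and 240 in MAR1INT.

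The antisense gene Gm15997 overlaps the Wdr95 interval, but the annotations share 0 exonic bases, and Gm15997 was listed at 0 in each library. Whether reads were assigned by strand is not given in the sources used here, so overlapping reads on opposite strands, here and at Dnase2b, cannot be told apart. None of the 3606 distinct 50-base words of Wdr95 transcripts occurred in another gene's transcripts. Among 49 other tested genes whose symbols begin with Wdr, 11 fell and 1 rose between BaP and MAR1INT. The 1 that rose was Wdr44 (log2 change 1.08, named here after its value was seen). The 11 include Wdr83os (-1.27), named as the opposite strand of Wdr83, so a symbol alone does not show WD repeats. Over all genes tested, 20.4% were called lower and 11.1% called higher in that comparison, with limma's adjusted p under 0.05. The split depends on the scaling, since 35.3% of called genes were higher here and 55.1% after quantile normalization. Wdr74, a ribosome assembly factor, fell from 50.8 ± 8.99 to 6.29 ± 2.58 TPM (log2 change -2.86, adjusted p = 0.000526). Wdr62, a spindle pole protein, stood at 6.72 and 8.86 TPM in BaP and at 0.405 and 0.196 in MAR1INT (-2.75, adjusted p = 0.00171). Wdr76 fell too (-2.44, adjusted p = 0.00305). Wdr12 (-2.61, adjusted p = 0.0387) kept its call in 4 of 14 alternatives, and lost it without either BaP library, either MAR1HI library or MAR1INT replicate 2 (adjusted p from 0.0746 to 0.18).

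**Figure D1:**
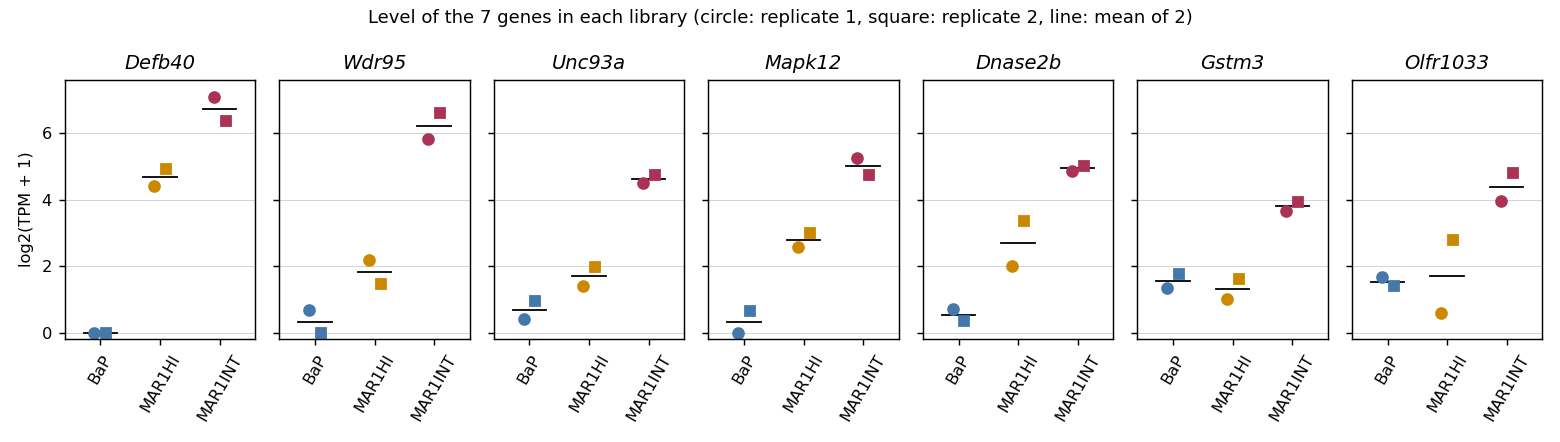
Levels of the 7 genes as log2(TPM + 1) in each library, with circles for replicate 1, squares for replicate 2 and lines for the mean of 2. In each gene both MAR1INT libraries lie above the 4 others, and BaP and MAR1HI overlap in Gstm3 and Olfr1033.

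Unc93a lies on chromosome 17, 13108617 to 13131791, minus strand, with 10 exons and 2643 exonic bases in the matching transcript. It was listed at 0.321 and 0.933 TPM in BaP, then 1.67 and 2.91 in MAR1HI, then 21.6 and 25.5 in MAR1INT. The groups did not overlap and the MAR1INT duplicates differed 1.18-fold. The MAR1INT mean of 23.6 ± 2.77 TPM (SD, n = 2) was 10.3 times that of MAR1HI. It was 37.6 times that of BaP, and 73.5 times without BaP replicate 2. The log2 differences were 1.02 for MAR1HI minus BaP and 2.92 for MAR1INT minus MAR1HI.

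The level of Unc93a is uncertain to the extent that reads can fall on a near copy. Of its 3036 distinct 50-base transcript words, 52.3% also occurred in transcripts of other genes, most of them in Unc93a2, elsewhere on chromosome 17. Unc93a2 itself was listed at 0.191 and 0 TPM in BaP, then 0.299 and 0 in MAR1HI, then 3.2 and 0.83 in MAR1INT, below Unc93a in every library. The long noncoding RNA gene Gm11166 lies 10145 bases downstream of Unc93a on the same strand. It stood at 0 and 0.952 TPM in BaP, then 0.387 and 2.61 in MAR1HI, then 13.8 and 19.2 in MAR1INT. It rose between BaP and MAR1INT (log2 change 3.63, adjusted p = 0.00153), a call kept in 14 of 14 alternatives, and between MAR1HI and MAR1INT (2.95, adjusted p = 0.00828). The latter call was lost without MAR1HI replicate 1 (adjusted p = 0.0916) and without MAR1HI replicate 2 (0.0575).

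The relative Unc93b1, which works in the endosomal Toll-like receptor route, stood at 26.0 ± 2.84, 8.29 ± 1.09 and 14.4 ± 3.23 TPM in BaP, MAR1HI and MAR1INT and was not called (MAR1INT minus BaP -0.82, adjusted p = 0.115). Of 15 tested genes of that route and its relatives, 6 fell and 1 (Irak4, log2 change 1.05, named after its value was seen) rose between BaP and MAR1INT, where 20.4% of all genes were called lower and 11.1% higher. The receptors Tlr13 (-2.18, adjusted p = 0.00922), Tlr9 (-2.07, 0.00701), Tlr8 (-1.74, 0.02) and Tlr7 (-1.71, 0.0174) were among those that fell. All 4 were low, at 1.98 to 11.5 TPM in BaP and 0 to 1.96 in MAR1INT. Quantile normalization ended the calls of Tlr7 and Tlr8 (adjusted p = 0.221 and 0.278). The calls of Tlr7, Tlr8 and Tlr9 were lost without BaP replicate 1 (adjusted p = 0.0862, 0.108 and 0.0593), that of Tlr13 without BaP replicate 2 (0.0738), and that of Tlr7 without MAR1INT replicate 1 (0.0606).

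Mapk12 lies on chromosome 15, 89130584 to 89140703, minus strand, next to the p38 beta gene Mapk11. It was listed at 0 and 0.558 TPM in BaP, then 5.03 and 7.07 in MAR1HI, then 37.2 and 25.7 in MAR1INT. The groups did not overlap, and MAR1HI stood 2.48 above BaP and 2.20 below MAR1INT on the log2 scale. With BaP near 0 the former rests on the constant added, and with 0.1 in place of 1 these were 4.56 and 2.36. The MAR1INT mean was 31.5 ± 8.15 TPM (SD, n = 2), 5.2 times that of MAR1HI. Of its 4086 distinct 50-base words, 2.1% occurred in transcripts of other genes.

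The p38 kinases differed among themselves. Mapk14 (p38 alpha), the most abundant of the 4, stood at 117 and 129 TPM in BaP, then 153 and 206 in MAR1HI, then 396 and 413 in MAR1INT. It rose between BaP and MAR1INT (log2 change 1.71, adjusted p = 0.000557) and between MAR1HI and MAR1INT (1.19, adjusted p = 0.00649), in 14 of 14 alternatives each. Mapk13 (p38 delta) stood at 2.68 and 6.92 TPM in BaP, 2.77 and 1.73 in MAR1HI, and was listed at 0 in MAR1INT. Its fall from BaP to MAR1INT (-2.43, adjusted p = 0.0048) lost its call after quantile normalization (0.0628). Mapk11 lies 1781 bases from Mapk12 and stayed between 0.109 and 2.23 TPM with no call (MAR1INT minus BaP 0.65, adjusted p = 0.321). In MAR1INT Mapk12 was thus the p38 kinase with the next highest TPM after Mapk14, while in BaP it lay below Mapk13 in both libraries. Exon capture may differ between genes, which was not tested.

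Of 31 tested genes of the p38 pathway other than Mapk12, 9 rose and 3 fell between BaP and MAR1INT, where 11.1% of all genes tested were called higher and 20.4% called lower. Their median log2 change was 0.53, beside -0.16 over all genes. Between MAR1HI and MAR1INT 3 rose and 3 fell (2.29% and 14.5% of all genes, with 13.7% of called genes higher here, 45.3% after quantile normalization and 39.5% after median-of-ratios scaling), and between BaP and MAR1HI 1 rose (1.83% of all genes, with 73.4% of called genes higher here and 56.9% to 59.5% with FPKM, quantile or median-of-ratios scaling). Zfp36, an RNA-binding protein that shortens the life of cytokine messages, stood at 21.0 ± 12.3, 72.1 ± 23.5 and 218 ± 11.7 TPM. Its rise between BaP and MAR1INT (3.44, adjusted p = 0.000348) was kept in 14 of 14 alternatives. That between BaP and MAR1HI (1.82, adjusted p = 0.0482) was lost in 9, including those without either BaP or either MAR1HI library (0.0537 to 0.454). Map2k6, a kinase that activates p38 kinases, stood at 11.0 and 10.7 TPM in BaP and 2.6 and 4.74 in MAR1HI, and was listed at 0 in MAR1INT. It fell between BaP and MAR1INT (-3.57, adjusted p = 0.000436). Map2k3, the partner kinase with the same function, rose in that comparison (1.06, adjusted p = 0.0276) and is named here after its value was seen. Dusp16, a phosphatase of MAP kinases, was called higher (1.79, adjusted p = 0.0286), a call lost in 7 of 14 alternatives. Those included fits without either BaP library, either MAR1HI library or MAR1INT replicate 1 (0.0627 to 0.227).

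**Figure D2:**
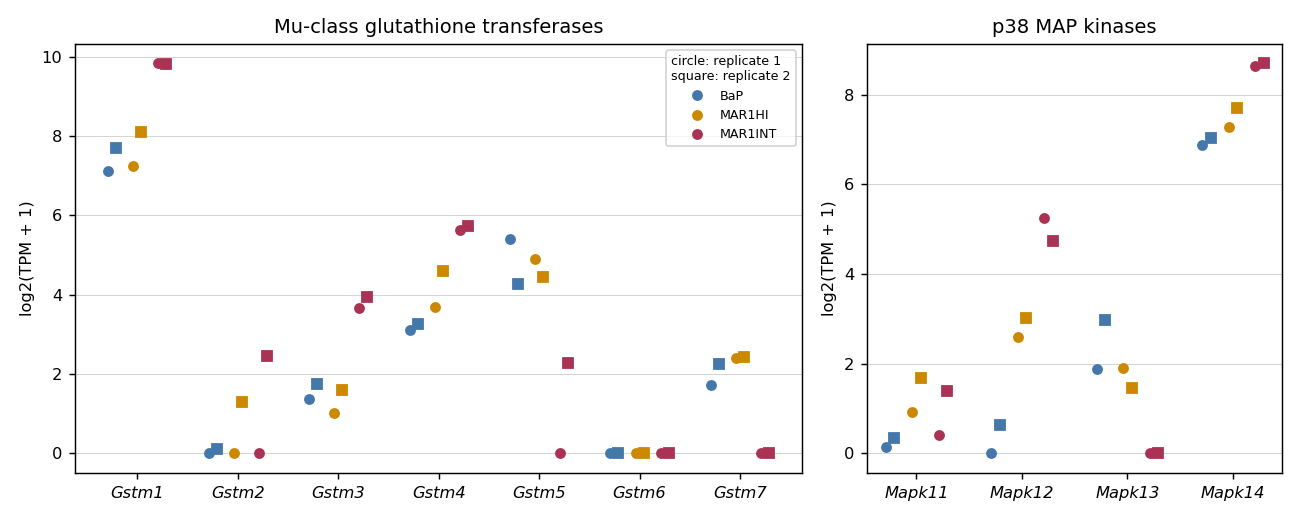
Levels, as log2(TPM + 1), of the mu-class glutathione transferase genes and of the p38 kinase genes in each library (circles: replicate 1, squares: replicate 2, colours: population). Gstm1, Gstm3, Gstm4, Mapk12 and Mapk14 are highest in MAR1INT, and Gstm7 and Mapk13 are at 0 there.

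Dnase2b lies on chromosome 3, 146581373 to 146615598, minus strand, with 7 exons in the closest annotated transcript. It was listed at 0.663 and 0.275 TPM in BaP, then 3.0 and 9.31 in MAR1HI, then 28.2 and 31.2 in MAR1INT. The groups did not overlap. The MAR1HI duplicates differed 3.11-fold and the MAR1INT duplicates 1.11-fold. The MAR1INT mean of 29.7 ± 2.13 TPM (SD, n = 2) was 4.82 times that of MAR1HI, and 3.19 or 9.9 times when 1 library was left out at the extremes. Over BaP it was 63.3 times, with extremes of 44.8 and 108. The log2 differences were 2.14 for MAR1HI minus BaP and 2.25 for MAR1INT minus MAR1HI. They moved between 1.46 and 2.82 and between 1.57 and 2.94 when a library was left out. With a constant of 0.1 they were 3.34 and 2.46.

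RefSeq promoters were at hand for 4 of the 7 genes (Gstm3, Dnase2b, Mapk12 and Unc93a), and that of Dnase2b is shown because it alone among them held the motif of GATA factors, regulators of basophil and mast cell genes. The window is the 250 bases before the transcript start (GRCm38.p6, chr3:146615599-146615848, minus strand), with GATAA, or TTATC where the motif lies on the other strand, in capitals.
Dnase2b promoter: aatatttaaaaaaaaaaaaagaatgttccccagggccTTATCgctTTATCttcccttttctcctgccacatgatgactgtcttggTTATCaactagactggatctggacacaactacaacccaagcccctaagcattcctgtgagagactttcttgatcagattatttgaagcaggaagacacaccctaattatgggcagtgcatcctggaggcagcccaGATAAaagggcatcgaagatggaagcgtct
It holds 4 matches. Of 32851 promoter windows of this length 22.6% held at least 1 match and 0.119% held 4 or more. The promoter was picked after its matches were seen, so these shares are a description and no test. The other 3 promoters held 0 matches. Likewise 0 matches were found in all 4 promoters, on either strand, for the RUNX motif TGTGGT, which 14% of windows held, the C/EBP motif TTNNGNAA (36.8%), the STAT5 motif of TTC, any 3 bases and GAA (7.02%) and the TATA box TATAAA (12.4%). A match of letters is not a bound site.

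Uox, the urate oxidase gene, overlaps Dnase2b on the opposite strand. The annotated exons share 0 bases, and Uox was listed at 0.393 TPM in MAR1HI replicate 1 and at 0 elsewhere. None of the 2741 distinct words of Dnase2b occurred in other transcripts. The gene 4930503B20Rik, 30661 bases from Dnase2b, stood at 7.80 and 5.50 TPM in BaP, then 33.0 and 48.9 in MAR1HI, then 80.2 and 62.8 in MAR1INT. It rose between BaP and MAR1INT (log2 change 3.25, adjusted p = 0.000245), in 14 of 14 alternatives. Its rise between BaP and MAR1HI (2.44, adjusted p = 0.00856) was lost when a BaP or a MAR1HI library was left out (0.0711 to 0.228). Gng5, Rpf1 and Spata1, on the other side of Dnase2b, were not called in any of the 3 comparisons (MAR1INT minus BaP 0.16, -0.22 and 0.75, adjusted p = 0.55, 0.642 and 0.204).

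Of 10 tested deoxyribonuclease and lysosomal nuclease genes, 5 fell and 0 rose between BaP and MAR1INT, where 20.4% of all genes were called lower and 11.1% higher. Between MAR1HI and MAR1INT 4 fell and 0 rose, where 14.5% were called lower and 2.29% higher, and the scaling moves these all-gene splits as given for the p38 genes. At an unadjusted p under 0.05 limma gave the same totals of 5 and 4. Both totals count Rnaset2a and Rnaset2b, near-identical copies whose reads may be shared. Dnase2a, the ubiquitous lysosomal relative, stood at 40.8 and 34.8 TPM in BaP, then 30.2 and 36.5 in MAR1HI, then 14.1 and 3.35 in MAR1INT. In MAR1INT replicates 1 and 2 Dnase2b thus had 28.2 and 31.2 TPM and Dnase2a 14.1 and 3.35, while Dnase2a was the higher in the 4 other libraries. The fall of Dnase2a from BaP to MAR1INT (-2.26, adjusted p = 0.0106) was lost without either BaP or either MAR1HI library (0.0555 to 0.101). Pld4, an endolysosomal exonuclease, fell from 29.9 ± 1.24 to 0.78 ± 0.704 TPM (-4.17, adjusted p = 0.000382). Rnaset2a, a lysosomal ribonuclease whose level is uncertain because of its near-identical copy Rnaset2b, fell from 648 ± 35.9 to 229 ± 22.6 TPM (-1.50, 0.000594), both in 14 of 14 alternatives. Endog, a mitochondrial nuclease, fell as well (-1.72, adjusted p = 0.0129), without a call when BaP replicate 1 was left out (0.0554) or after quantile normalization, where the change was -0.66 (0.2).

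Gstm3 lies on chromosome 3, 107963696 to 107969174, minus strand, within the cluster of mu-class glutathione transferase genes, with 8 exons. It stood at 1.57 and 2.39 TPM in BaP, then 1.03 and 2.04 in MAR1HI, then 11.7 and 14.3 in MAR1INT. BaP and MAR1HI overlapped, with a log2 difference of -0.25 that turned to 0.05 without MAR1HI replicate 1. MAR1INT stood apart from both, at 13.0 ± 1.86 TPM (SD, n = 2), 8.43 times MAR1HI and 6.56 times BaP. Of its 1262 distinct words 28.8% occurred in transcripts of 4 other genes, among them Gstm1 with 124 words, so the counting of reads between these copies is uncertain.

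The cluster split. Gstm1, 43076 bases from Gstm3, was its most abundant member and rose from 173 ± 49.3 TPM in BaP and 211 ± 84.8 in MAR1HI to 900 ± 9.51 in MAR1INT (MAR1INT minus BaP 2.40, adjusted p = 0.000486). Gstm4 rose from 8.12 ± 0.767 to 50.1 ± 2.23 TPM (2.49, 0.00143). Both calls were kept in 14 of 14 alternatives. In contrast, Gstm5 stood at 41.1 and 18.2 TPM in BaP, then 28.9 and 20.8 in MAR1HI, then 0 and 3.88 in MAR1INT (-3.69, adjusted p = 0.00416, and 0.0661 without BaP replicate 1). Gstm7 stood at 2.32 and 3.73, then 4.27 and 4.36 TPM, and was listed at 0 in MAR1INT (-1.98, adjusted p = 0.00607, and 0.0789 after quantile normalization). Gstm2 was at 0 to 4.51 TPM with no call, and Gstm6 was listed at 0 in each library.

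Of 27 tested glutathione transferase and glutathione enzyme genes, the mu class included, 6 rose and 9 fell between BaP and MAR1INT, where 11.1% of all genes were called higher and 20.4% lower. Without the mu class these were 4 and 7 of 22. Between MAR1HI and MAR1INT 4 rose and 4 fell (2.29% and 14.5% of all genes), or 2 and 2 of 22 without the mu class. Between BaP and MAR1HI 1 (Gsto1) fell, where 0.662% of all genes did. The kappa-class Gstk1 stood at 12.5 and 10.6 TPM in BaP, 9.39 and 16.5 in MAR1HI, and was listed at 0 in MAR1INT (-3.64, adjusted p = 0.00045). The omega-class Gsto1 stood at 133 and 117, 21.0 and 25.5, and 19.1 and 5.20 TPM. Its fall between BaP and MAR1INT (-3.50, adjusted p = 0.000847) was kept in 14 of 14 alternatives. That between BaP and MAR1HI (-2.38, adjusted p = 0.0385) was lost when any of these 4 libraries was left out (0.169 to 0.362).

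Olfr1033 had the widest spread between duplicates of the 7. It lies on chromosome 2, 86020640 to 86044808, plus strand, in a cluster of olfactory receptor genes. Its levels were 2.21 and 1.64 TPM in BaP, then 0.518 and 5.98 in MAR1HI, then 14.6 and 26.9 in MAR1INT. The MAR1HI duplicates differed 11.6-fold and enclosed both BaP values, while both MAR1INT values lay above the others. The MAR1INT mean was 20.7 ± 8.74 TPM (SD, n = 2), 6.38 times MAR1HI (40.1 times without MAR1HI replicate 2) and 10.8 times BaP. The log2 difference of MAR1HI from BaP was 0.16, and it was -0.94 or 1.26 without MAR1HI replicate 2 or 1, -0.08 with median-of-ratios scaling and -0.05 with a pseudocount of 0.1. Of its 4307 distinct words 5.85% occurred in other transcripts, nearly all in Olfr1032, which stood at 0 to 0.748 TPM.

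The other olfactory receptor genes differed between libraries. Of these 1105, 571 were above 0 in BaP replicate 2 and 259 in MAR1HI replicate 2, against 18 to 57 in the other 4 libraries. Their summed level was 733 TPM in BaP replicate 2, 53.6 in MAR1HI replicate 2, and 95.3 and 20.6 in MAR1INT replicates 1 and 2. MAR1HI replicate 2 was thus the higher of the MAR1HI duplicates both for Olfr1033 and for the number of other receptors above 0. BaP replicate 2 had the most other receptors above 0 with 1.64 TPM of Olfr1033. The part of this background in the Olfr1033 values was not tested. Both MAR1INT libraries had few receptors above 0 and the highest Olfr1033 levels. The highest other receptor was Olfr167, at 107 TPM, in BaP replicate 2, where 119 of the 1105 reached 1 TPM, and Olfr60, at 34.6 TPM, in MAR1INT replicate 1, where Olfr1033 stood at 14.6.

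Of the 5 other olfactory receptor genes that passed the filter, Olfr1034 was called between BaP and MAR1INT. It begins 1636 bases past the end of Olfr1033 on the same strand and stood at 0.365 and 0.866 TPM in BaP, then 0 and 4.45 in MAR1HI, then 27.7 and 4.34 in MAR1INT. The rise (2.96, adjusted p = 0.0324) was lost in 9 of 14 alternatives, including the fits without either BaP or either MAR1HI library (0.0612 to 0.181). Olfr1393 stood at 3.63 and 2.56 TPM in MAR1HI and was listed at 0 in MAR1INT. It fell between MAR1HI and MAR1INT (-2.02, adjusted p = 0.0123). That call was lost without MAR1HI replicate 1 (0.0889) or 2 (0.0868), and after quantile normalization, where the change was -0.98 (0.137). Of 11 genes of olfactory signalling, 2 passed the filter and limma called 0, also at an unadjusted p under 0.05.

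**Figure D3:**
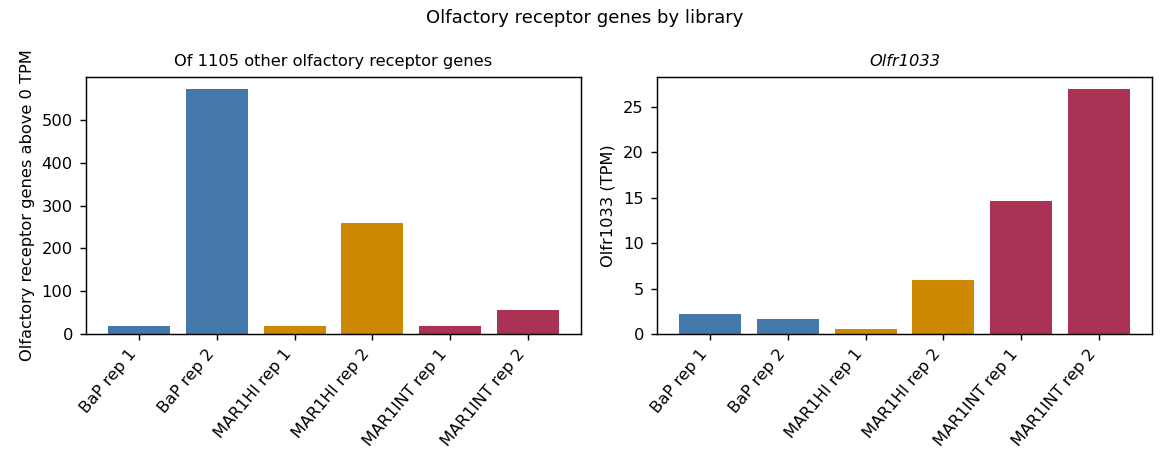
Left, number of the 1105 olfactory receptor genes other than Olfr1033 above 0 TPM in each library; right, Olfr1033 in TPM (bars: 1 library each, colours: population). BaP replicate 2 and MAR1HI replicate 2 have the most receptors above 0 (571 and 259), and the MAR1INT libraries have the highest Olfr1033 (14.6 and 26.9 TPM).

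Set side by side, the 7 genes differed in where MAR1HI stood relative to BaP and MAR1INT. The order BaP, MAR1HI, MAR1INT is assumed for description, and a step here means a difference between sorted populations. Whether cells pass from one population to the next was not tested. All 7 were above BaP in both MAR1INT libraries, where 29.7% of genes tested had this order, and all 7 above MAR1HI, where 12.7% had it. The rule chose them for this. In 5 of the 7 both MAR1HI libraries were above both BaP libraries, where 38.2% of genes tested had that order, and Gstm3 and Olfr1033 were the exceptions. The values of all libraries chose the genes, and these 5 passed the filter through MAR1HI and MAR1INT alone. This count and the medians that follow are therefore a description and no test. The median log2 difference over the 7 was 1.49 for MAR1HI minus BaP, 2.48 for MAR1INT minus MAR1HI and 4.40 for MAR1INT minus BaP. Over all genes tested these medians were 0.24, -0.36 and -0.16. MAR1HI enters the first pair of differences with opposite signs, and the comparisons share libraries.

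On a scale from 0 at BaP to 1 at MAR1INT, MAR1HI stood at 0.69 for Defb40, 0.53 for Mapk12 and 0.49 for Dnase2b. For Unc93a and Wdr95 it stood at 0.26 and 0.25, and for Olfr1033 and Gstm3 at 0.06 and -0.11. These positions rest on the constant where BaP is near 0, and with 0.1 they were 0.79, 0.66 and 0.58 for Defb40, Mapk12 and Dnase2b, 0.35 and 0.41 for Unc93a and Wdr95, and -0.01 and -0.14 for Olfr1033 and Gstm3. The first step of Defb40 exceeded its next step in each of the 4 pairs of libraries (4.41 to 4.93 against 1.43 to 2.68). With 0.1 that of Mapk12 did so too (2.96 to 6.16 against 1.85 to 2.86). With the constant of 1, for Wdr95, Unc93a and Gstm3 the step from MAR1HI to MAR1INT was the larger in each of the 4 pairs. The ranges of the steps then overlapped for Mapk12, Dnase2b and Olfr1033, and with 0.1 those of Wdr95 overlapped as well (1.43 to 5.2 against 3.93 to 5.7). The SD between MAR1INT duplicates was 0.10 (Dnase2b) to 0.60 (Olfr1033) on the log2 scale, beside 0.668 for the root mean square over all genes tested.

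**Figure D4:**
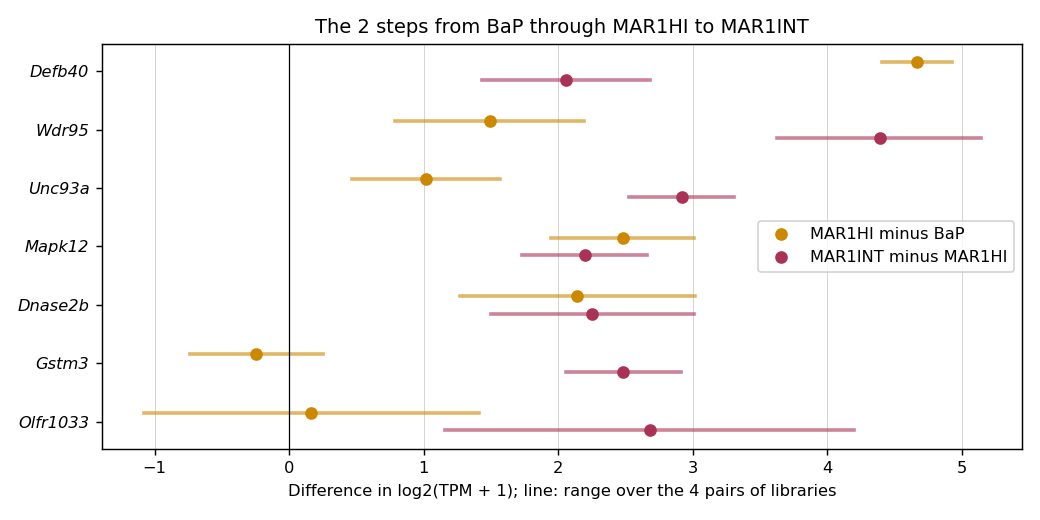
Difference in log2(TPM + 1) for MAR1HI minus BaP and for MAR1INT minus MAR1HI in each of the 7 genes (points: difference of group means, lines: range over the 4 pairs of libraries). The first step is the larger in Defb40 (4.67 against 2.06) and near 0 in Gstm3 (-0.25) and Olfr1033 (0.16).

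The order of the 7 by TPM also changed. In BaP Gstm3 and Olfr1033 were the highest, with means of 1.98 ± 0.582 and 1.92 ± 0.406 TPM, and Defb40 was the lowest. In MAR1INT Gstm3 was the lowest and Defb40 and Wdr95 the highest, whose library values overlapped. Below them came Mapk12 and Dnase2b, which overlapped, then Unc93a, which overlapped with neither of these, and Olfr1033, whose values overlapped with those of Unc93a and Mapk12. The values of Gstm3 lay below those of every other member, its 14.3 TPM in replicate 2 close to the 14.6 of Olfr1033 in replicate 1.

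Among non-member genes tested, those with the most similar profiles over the 6 libraries were found by the root mean square difference of centred log2(TPM + 1) values. For Mapk12 they were the metalloprotease Adam8 (0.19), the eotaxin receptor Ccr3 (0.29) and the chemokine Ccl6 (0.32). For Dnase2b they were Ccr3 (0.33), the zinc finger factor Hivep2 (0.39) and the glycine transporter Slc6a9 (0.39). For Unc93a they were its neighbour Gm11166 (0.31), Hivep2 (0.37) and the anion transporter Slc26a11 (0.38). For Gstm3 they were Mir6927 (0.20), the activin receptor Acvr2a (0.23) and its neighbour Gstm1 (0.24). Defb40 was nearest to the surface protein Cd7 (0.45), then to the serotonin transporter Slc6a4 (0.80) and Ccl6 (0.82). Wdr95 was nearest to Mir5136 (0.87), Slc6a4 (0.93) and Ccl6 (0.95), so no tested gene came close to it. Olfr1033 was nearest to Gm11166 (0.55), Mir7062 (0.56) and Gstm1 (0.58). Mir6927, Mir7062 and Mir5136 lie within longer genes on the same strand (Mllt6, Adam8 and 5730408K05Rik), and how reads were divided between such pairs is not given in the sources used here. The host 5730408K05Rik was listed at 0 in both MAR1INT libraries, opposite to Mir5136. Among the 7 themselves, Mapk12 and Dnase2b were the closest pair (0.47).

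Of 55 genes that overlap the 7 or lie within 100 kb, 26 were tested, and 6 rose (23.1%) and 5 fell (19.2%) between BaP and MAR1INT, where 11.1% of all genes were called higher and 20.4% lower. Those that rose were Gm11166, 4930503B20Rik, Gstm1, Gstm4, Olfr1034 and Hdac10, a deacetylase gene 1884 bases from Mapk12 (1.27, adjusted p = 0.0189, lost without either BaP library, with adjusted p = 0.176 and 0.0524). Those that fell were Gstm5, Gstm7, the semaphorin receptor Plxnb2 near Mapk12 (-2.01, 0.00467, and 0.0574 after quantile normalization), and Xkr5 (-1.70, 0.0174) and the acyltransferase Agpat5 (-1.12, 0.0237) near Defb40. The call of Xkr5 was lost without BaP replicate 1 (0.104), with no filter (0.0591) and after quantile normalization, where the change was -0.45 (0.42), and that of Agpat5 without BaP replicate 1 (0.224) and 2 (0.0921). Around Wdr95 the tested neighbours Hsph1, a chaperone (0.25, adjusted p = 0.695), and B3glct (-0.11, 0.899) were not called. Counting every related gene once, in lists and neighbourhoods, 58 of 158 tested genes (36.7%) were called between BaP and MAR1INT, beside 31.5% of all genes. Between MAR1HI and MAR1INT these were 29 (18.4%, beside 16.8%), and between BaP and MAR1HI 3 (1.9%, beside 2.49%).

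**Figure D5:**
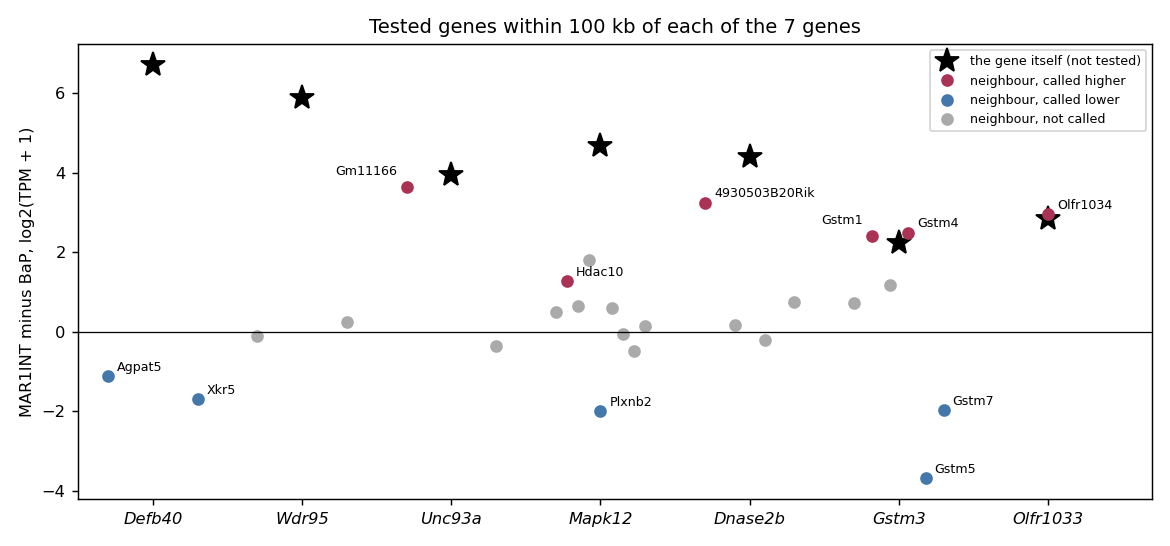
MAR1INT minus BaP difference in log2(TPM + 1) of each of the 7 genes (stars, not tested) and of the tested genes within 100 kb (points, coloured by limma's call). Gm11166, 4930503B20Rik, Gstm1, Gstm4 and Olfr1034 lie above 2, while the tested neighbours of Defb40 and Wdr95 lie between -1.70 and 0.25.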

How the data were processed

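RNA sequencing of total RNA gave 1 table per library. Per the submitters' processing notes, Trimmomatic, HISAT2 and StringTie and the build mm10 were used, and versions, options and annotation are not given in the sources used here. Per the labels' protocols, RNA came from TRIzol LS extraction and libraries from a SureSelectXT RNA direct kit, which captures exons. How evenly different genes are captured was not tested, so orders of genes by level are orders of TPM only. Per the file headers, the authors deposited coverage (a signal, the mean depth per base), FPKM and TPM. Each TPM column summed to 1000000. Aligned bases were read from the ratio of the deposited coverage to FPKM. These tables hold no read counts, so no counting interval is given.

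Values of 1 gene identifier were summed. Of 24532 identifiers 24462 matched a symbol (GRCm38.p6), and 99.4% of these overlapped their reference interval. The 11337 genes that reached a TPM of 1 in 2 or more libraries were tested on log2(TPM + 1), which understates changes of low genes, with limma 3.58.1 (R 4.3.3, trend, 3 residual degrees of freedom, all 6 libraries), testing both directions, with Benjamini-Hochberg adjustment over all of them and a call at 0.05. The procedure was tested on simulated data with equal spread in the groups and large changes, so that test does not cover unequal spread or small changes. All 7 genes passed this filter, 5 of them through MAR1HI and MAR1INT alone. With 2 libraries against 2, the smallest p of an exact permutation test is 0.333. P-values rest on a spread between libraries labelled as biological duplicates, pooled over the groups and moderated across genes (median prior degrees of freedom 6.39). The root mean square SD of duplicates was 0.423 in BaP, 0.427 in MAR1HI and 0.668 in MAR1INT on the log2 scale. The fit does not allow for this inequality, so a call can depend on a library outside its comparison.

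The members, gene lists and tests were chosen with earlier results of these data known. Named were the 7, the nearest relatives, neighbours within 100 kb, the 3 most similar profiles per gene, and up to 4 called genes per list with the largest change. Sequence words of 50 bases were compared, on either strand, with GENCODE transcripts. Alternatives were another pseudocount (0.1), other filters, FPKM, quantile or median-of-ratios scaling, 2 groups only, a replicate block and leaving out each library. Python 3.11.15, pandas 2.3.3 and matplotlib 3.10.9 were used.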

Additional observations from a re-analysis of the deposited data

How the results depend on the processing

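Values are given for the step from BaP to MAR1HI, the step from MAR1HI to MAR1INT and the whole difference of MAR1INT from BaP, in turn. Calls over all genes (282, 1900 and 3574) became 89 in the first with a pseudocount of 0.1, 4, 562 and 2358 with no filter, and 1062 in the first with only the 2 groups compared. Calls among the 158 related genes (3, 29 and 58) became 1 in the first with the pseudocount of 0.1, 0, 8 and 34 with no filter, 6 with a mean TPM of 5 or more, 8 with FPKM and 9 with quantile normalization in the first, and 23 and 19 in the first and the next with only the 2 groups. Leaving out 1 library gave 3 to 1092, 239 to 2611 and 1581 to 4024 calls over all genes, and 0 to 25, 3 to 37 and 27 to 63 among related genes. The lowest counts came without MAR1HI replicate 1 (3), MAR1HI replicate 2 (239) and BaP replicate 1 (1581). The median of the 7 genes (1.49, 2.48 and 4.40) became 3.31, 3.06 and 5.8 with the pseudocount of 0.1, 1.01 and 3.66 with FPKM in the first and the last, 3.13 and 4.68 with quantile normalization in the last pair, and 4.43 with median-of-ratios scaling in the last. Without 1 library it was 1.29 to 1.83, 1.99 to 2.94 and 4.21 to 4.42. Both differences to MAR1INT were above 0 for all 7 genes under all 14 alternatives. The genes were chosen for these rises, and their MAR1INT libraries lie above all others. Leaving out a library therefore could not turn the sign, and this is no check of the rises. Differences near 0 turned sign in MAR1HI minus BaP: Olfr1033 gave -0.05 with the pseudocount of 0.1, -0.08 with median-of-ratios scaling and -0.94 to 1.26 without 1 library, and Gstm3 gave -0.54 to 0.05. The median change of all genes (0.24, -0.36 and -0.16) was 0.02, 0.11 and 0.11 after quantile normalization. The cause of these shifts was not tested. Deviations of same-numbered libraries correlated at 0.154 (BaP and MAR1HI), -0.092 and -0.059, so pairing by number was not taken as given, although replicate 2 had more genes above 0 than replicate 1 in each group. A replicate block gave 211, 1760 and 3394 calls, and 3, 26 and 57 among related genes. With 2 libraries a group, low levels and spread within a group limit what can be read from a single gene.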
